A study of Homo sapiens with 35 samples.

Results

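The genes described here are the targets of the sterol regulatory element-binding proteins (SREBPs) that build cholesterol and fatty acids. They were taken from a list of 32 symbols and read on Affymetrix whole-transcript arrays from HCT116, a long-established line of human colorectal carcinoma. A gene was represented by the transcript cluster (a row of the array's table) that carried only its symbol. Among several such clusters, that with the highest mean signal across the 35 arrays stood for the gene. Under this rule 30 of the 32 genes had a cluster, out of 18404 genes in all. FDFT1 had none, and HSD17B7 shared its only cluster with the pseudogene HSD17B7P2, so neither is reported. The sterol branch held 20 genes: 16 enzymes and 4 genes of regulation and transport (SREBF2, INSIG1, STARD4 and NPC1). The fatty acid branch held 10 genes, headed by SREBF1.

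3 HCT116 lines were compared: shControl, which carried a non-target short hairpin RNA, shCDK8, in which the hairpin was directed at CDK8, and shCDK19, in which it was directed at CDK19. Both targets are kinases of Mediator, the complex between gene-specific transcription factors and RNA polymerase II, and they are close paralogs. There were 14 groups in 4 experiments. In normal growth, untreated cells of each line gave 3 arrays a group. In the drug experiment, shControl cells received DMSO, and cells of each line received 5-fluorouracil (5FU, an inhibitor of thymidylate synthesis) for 12 h, with 2 arrays a group. In the glucose experiment, shControl cells were kept in high glucose DMEM and cells of each line in low glucose DMEM for 24 h, with 3 arrays a group. In the hypoxia experiment, cells of each line were kept at 1% oxygen for 24 h, with 2 arrays a group. McCoy's 5A with added fetal calf serum was the plating medium of all groups. Each target was represented by 1 hairpin line, so the knockdown and other properties of that line cannot be told apart. No knockdown line in DMSO or high glucose, and no normoxic culture of the hypoxia experiment, was analysed here. Nothing in the labels says whether replicates were separate cultures, so p-values measure only how these arrays spread, and that spread may be technical. In such bulk RNA, fewer cells with a transcript and less of it per cell cannot be told apart.

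Cells make cholesterol from acetyl-CoA through mevalonate, farnesyl diphosphate, squalene and lanosterol, and make fatty acids from the same acetyl-CoA through malonyl-CoA. SREBP-2, encoded by SREBF2, mainly drives the sterol enzymes, and SREBP-1, encoded by SREBF1, mainly drives fatty acid synthesis. Both precursors are held in the endoplasmic reticulum by SCAP and the INSIG proteins when sterols are plentiful. When sterols fall they travel to the Golgi, are cleaved, and enter the nucleus, where they bind promoters together with NF-Y and Sp1. INSIG1 is itself a target, which closes a feedback loop. CDK8 is known to phosphorylate nuclear SREBP and so to mark it for degradation.

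Promoter windows from RefSeq (GRCh38.p14; 250 bases before to 50 bases from the start on) were found for 27 of the 30 genes, 39 windows in all, since some genes have several starts. Both strands were searched for the SREBP element core TCACNCCAC, the NF-Y box CCAAT, the E-box CACGTG and the GC box GGGCGG. None of these letters contains another of them. The NF-Y box stood in 24 of 39 windows (61.5%), against 34.6% of all 35116 promoter windows of the same length. It stood in 17 of 23 windows of sterol genes (73.9%) and in 7 of 16 windows of fatty acid genes (43.8%). By gene, 15 of 18 sterol genes and 5 of 9 fatty acid genes had one in any window. The share by gene over all genes was not counted. The GC box stood in 34 of 39 windows (87.2%), against 45% of all. The E-box stood in 4 of 39 (10.3%), against 7.26%. The SREBP core stood in 1 window, that of SREBF2 (2.56%), against 1.13% of all windows. A match is a description of these letters and not a binding site. The 190 bases before the start are printed for genes on which the results turn, with the SREBP core, NF-Y boxes and E-boxes in capitals. Where a gene had several windows, the window with the most matches of these 3 kinds was chosen. HMGCS1 and ACLY had 2 windows each. The window of HMGCS1 that is not printed held no NF-Y box, while that of ACLY held one. SREBF2 holds the SREBP core and an NF-Y box on the other strand. INSIG1, STARD4, HMGCS1 and MSMO1 are the 4 genes that differed most between the hypoxic knockdown lines, and ACLY is the fatty acid gene that varied least.
SREBF2 (chr22:41832915-41833104, plus strand): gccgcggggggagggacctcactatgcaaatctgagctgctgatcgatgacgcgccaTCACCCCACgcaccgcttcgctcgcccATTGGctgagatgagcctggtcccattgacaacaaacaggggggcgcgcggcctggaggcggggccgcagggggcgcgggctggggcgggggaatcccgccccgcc
INSIG1 (chr7:155297688-155297877, plus strand): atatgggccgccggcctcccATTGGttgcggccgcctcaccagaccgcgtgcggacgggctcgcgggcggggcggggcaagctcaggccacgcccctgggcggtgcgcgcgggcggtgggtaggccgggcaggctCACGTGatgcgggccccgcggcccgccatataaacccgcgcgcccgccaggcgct
STARD4 (chr5:111512536-111512725, minus strand): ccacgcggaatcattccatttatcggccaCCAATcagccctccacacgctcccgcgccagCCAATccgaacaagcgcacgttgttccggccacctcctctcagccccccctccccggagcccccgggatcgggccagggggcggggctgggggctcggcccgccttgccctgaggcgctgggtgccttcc
HMGCS1 (chr5:43313413-43313602, minus strand): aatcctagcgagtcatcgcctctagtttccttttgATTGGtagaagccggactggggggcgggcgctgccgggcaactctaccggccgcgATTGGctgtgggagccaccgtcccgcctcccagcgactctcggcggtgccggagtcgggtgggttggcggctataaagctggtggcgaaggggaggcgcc
MSMO1 (chr4:165327479-165327668, plus strand): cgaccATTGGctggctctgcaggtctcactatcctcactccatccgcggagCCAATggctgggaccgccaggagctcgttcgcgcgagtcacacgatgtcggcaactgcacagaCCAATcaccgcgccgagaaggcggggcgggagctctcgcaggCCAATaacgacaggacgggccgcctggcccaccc
ACLY (chr17:41919023-41919212, minus strand): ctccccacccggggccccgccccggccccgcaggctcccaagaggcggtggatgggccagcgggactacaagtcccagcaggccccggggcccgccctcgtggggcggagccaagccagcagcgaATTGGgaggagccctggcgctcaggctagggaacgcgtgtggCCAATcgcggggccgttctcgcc

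The hairpins lowered their targets in all 4 experiments. In shCDK8 cells the cluster that CDK8 shares with ADRA1B lay below shControl by a log2 difference between -2.75 and -2.03, and in shCDK19 cells CDK19 lay below shControl by between -1.56 and -1.08. The kinase that was not targeted also differed in places. Under hypoxia the CDK8 cluster differed from shControl by 0.63 in shCDK19 cells, and CDK19 by 0.487 in shCDK8 cells. In normal growth CDK19 differed by 0.326 in shCDK8 cells. The remaining differences of this kind lay between -0.07 and 0.147. Of 8 markers of colon carcinoma epithelium, KRT8, KRT18, KRT19 and EPCAM had means of 11.97 or more on the log2 scale, while VIL1 (6.43) and CEACAM5 (5.33) were low. Of 17 markers of fibroblasts, leukocytes, endothelium and adipocytes, DCN, LUM, PTPRC and FABP4 lay at or near the floor of 4.32. The others had means from 5.50 (PECAM1) to 8.74 (COL1A1), among them PLIN1 (7.51), COL1A2 (6.98), CIDEC (6.66) and CD14 (6.65), so several lay above VIL1. Levels of different probes are not comparable, and whether such signal came from other cells was not tested. Replicate arrays correlated with r between 0.976 and 0.998 over all genes, and upper quartiles of the arrays ran from 8.96 to 9.25. No sterol or fatty acid gene was near the floor: the median position of their means among all genes was the percentile 85, and all 30 were tested.

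Over the 14 groups the sterol branch differed most between the knockdown lines under hypoxia, and the fatty acid branch between the knockdown lines under 5FU and shControl cells in low glucose. The shCDK19 hypoxia group held the highest group mean of 16 of the 30 genes (12 sterol, 4 fatty acid). The shCDK8 hypoxia group held the lowest mean of 11 of 20 sterol genes. For 9 of 10 fatty acid genes the lowest mean lay in a knockdown line under 5FU instead (shCDK19 for 5, shCDK8 for 4), and for FASN it lay in shCDK19 cells in low glucose. INSIG1 had the widest range of group means (3.53 on the log2 scale), followed by STARD4 (3.05), ACSS2 (2.47) and HMGCS1 (2.45), and ACLY the narrowest (0.548).

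**Figure D1:**
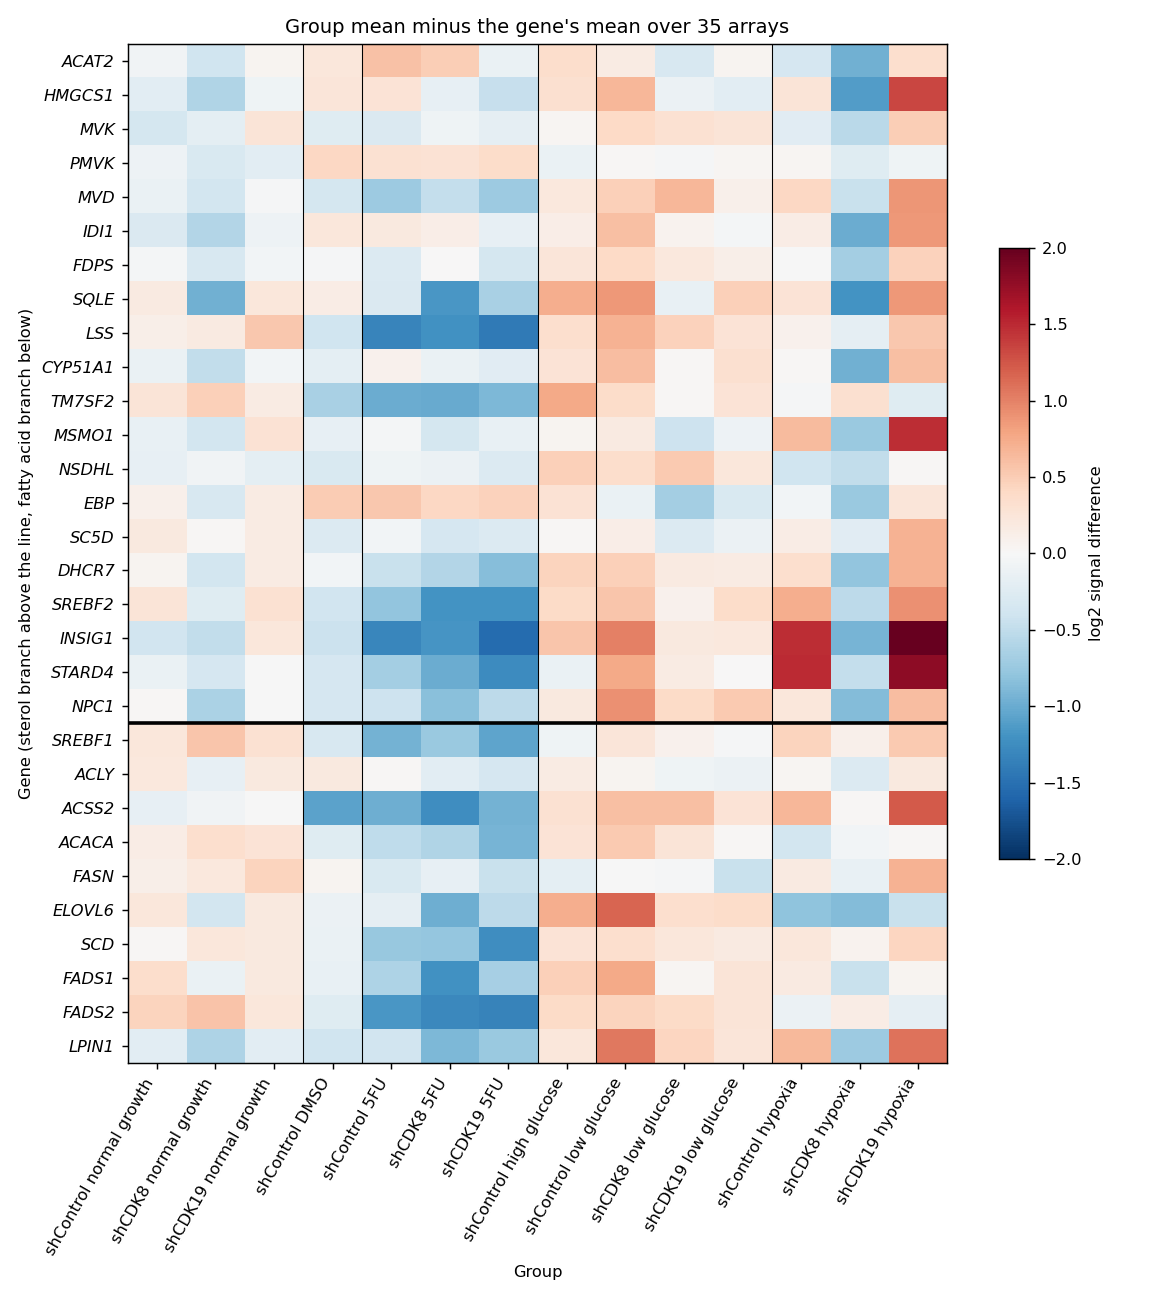
Mean log2 signal of each of the 30 genes in each of the 14 groups minus that gene's mean over 35 arrays, with red above and blue below; sterol genes stand above the horizontal line and fatty acid genes below it. The darkest red is INSIG1 in shCDK19 hypoxia, and the bluest columns are the 5FU groups and shCDK8 hypoxia.

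The median over sterol genes, each centred on its own mean, was -0.69 and -0.70 on the 2 shCDK8 hypoxia arrays and 0.63 and 0.69 on the 2 shCDK19 hypoxia arrays. The shControl hypoxia arrays lay between them at 0.0029 and 0.30. For fatty acid genes the lowest arrays were those of shCDK19 under 5FU (-0.86 and -0.79) and shCDK8 under 5FU (-0.85 and -0.80), and the highest were those of shControl in low glucose (0.44, 0.49 and 0.51). In the drug experiment the shControl arrays in DMSO already lay at -0.274 and -0.116, and those under 5FU at -0.576 and -0.565. The shControl arrays in normal growth lay at 0.204, 0.157 and 0.165. The branches thus had their lowest arrays in different experiments. The 14 group means came from 4 experiments, and groups of the same experiment are not independent. Across these means the median pairwise r was 0.586 among sterol genes (31 of 190 pairs negative). It was 0.598 among fatty acid genes (1 of 45) and 0.518 between the branches (30 of 200). PMVK and EBP had the lowest median r with the other sterol genes (-0.16 and -0.038). For EBP single values ran from -0.62 with TM7SF2 to 0.79 with ACAT2. PMVK, which makes mevalonate diphosphate, was highest in DMSO, and EBP, a sterol isomerase, was highest in shControl cells under 5FU.

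**Figure D2:**
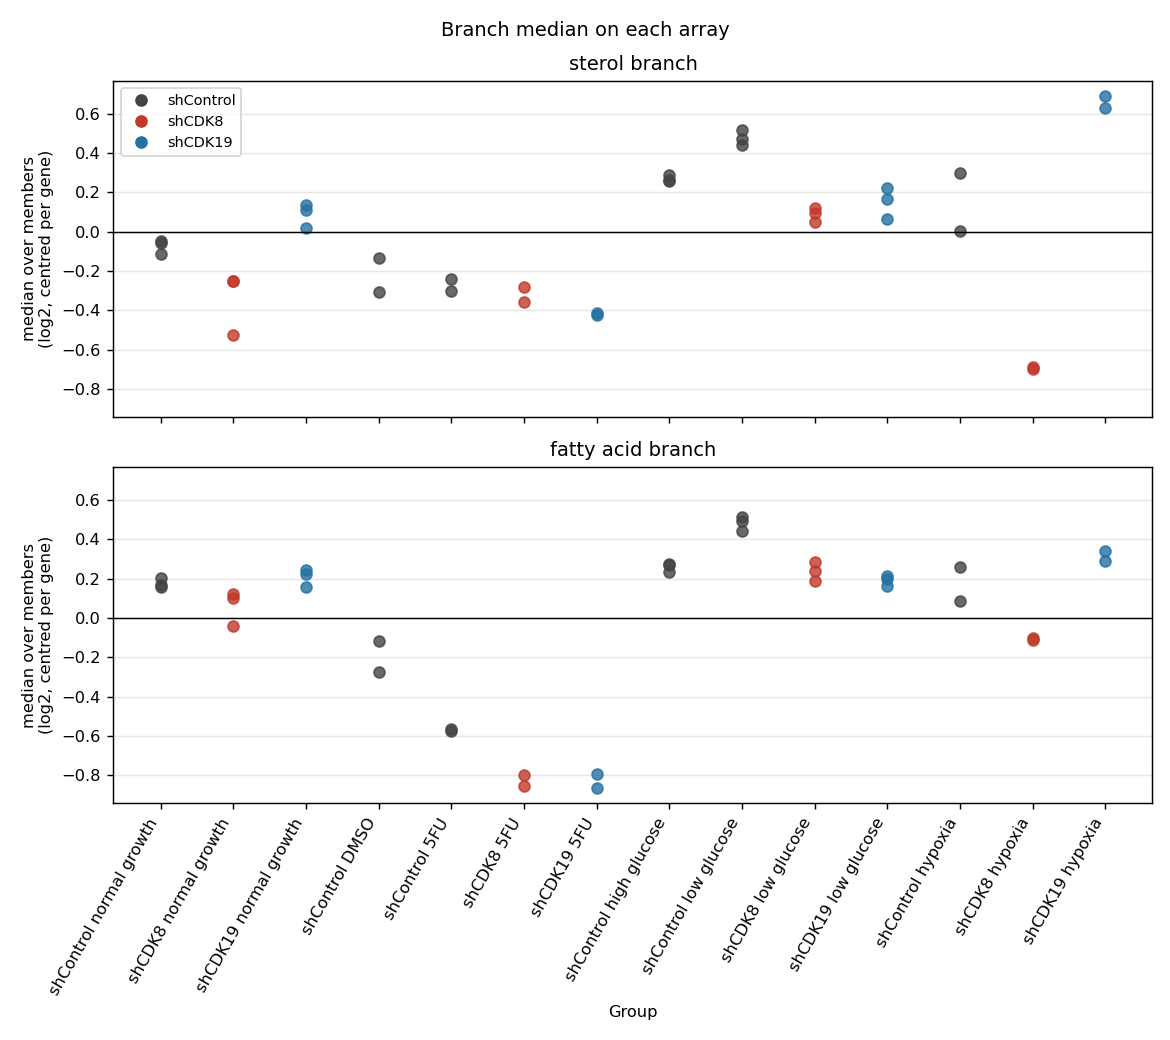
Median over the genes of a branch of the log2 signal, each gene centred on its mean over 35 arrays, for each array (points, coloured by line) of each group. The sterol panel separates shCDK8 hypoxia (-0.70 to -0.69) from shCDK19 hypoxia (0.63 to 0.69). The fatty acid panel is lowest under 5FU, and the DMSO arrays of the same experiment (-0.274 and -0.116) also lie below 0.

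In normal growth the knockdown of CDK8 went with lower sterol genes and a split fatty acid branch. A gene is called changed where limma gives an adjusted p under 0.05 over all 18404 genes. In shCDK8 against shControl cells 9 sterol genes were lower and 1 higher, and 4 fatty acid genes were lower and 2 higher. Over all genes 13.5% were called lower and 11.4% higher. The median change was -0.26 for sterol genes, 0.094 for fatty acid genes and -0.023 for all genes. SQLE, the squalene epoxidase, read 10.93, 10.88 and 10.88 in shControl arrays and 9.40, 10.01 and 9.86 in shCDK8 arrays. The groups were apart, with shCDK8 replicate 1 the lowest array, and the change was -1.14 ± 0.14 (SE; adjusted p = 0.000811), a 2.21-fold fall. NPC1, which moves cholesterol out of lysosomes, read 10.70, 10.61 and 10.70 against 9.87, 10.10 and 10.09, a change of -0.65 ± 0.071 (adjusted p = 0.000487). SREBF2 read 10.82, 10.72 and 10.73 in shControl and 10.10, 10.31 and 10.34 in shCDK8, a change of -0.51 ± 0.069 (adjusted p = 0.00144). The mRNA of the other precursor went the opposite way.

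SREBF1 read 10.73, 10.60 and 10.64 in shControl arrays and 10.97, 11.03 and 10.98 in shCDK8 arrays. Every shCDK8 array was above every shControl array, and the change was 0.34 ± 0.046 (adjusted p = 0.0015). Of its branch, 4 other genes were lower and SCD was higher. ELOVL6, an elongase of saturated chains, fell from 10.33, 10.46 and 10.40 to 9.53, 9.96 and 9.91 (-0.60 ± 0.11, adjusted p = 0.00627). FADS1, the delta-5 desaturase, fell from 11.35, 11.32 and 11.29 to 10.68, 10.98 and 10.84 (-0.48 ± 0.080, adjusted p = 0.00376). LPIN1, a phosphatidate phosphatase, fell from 9.03, 8.95 and 8.91 to 8.42, 8.61 and 8.63 (-0.41 ± 0.078, adjusted p = 0.00744). ACLY, which makes cytosolic acetyl-CoA, fell by 0.38 on the log2 scale. SCD, the delta-9 desaturase, was higher (0.20 ± 0.050, adjusted p = 0.0248). FASN, the fatty acid synthase, read 11.98, 11.83 and 11.79 against 11.94, 11.94 and 12.01, a change of 0.097 ± 0.055 that did not pass (adjusted p = 0.276).

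The other sterol genes called lower were EBP, DHCR7, CYP51A1, IDI1, FDPS and PMVK, with changes between -0.43 and -0.21, and TM7SF2 was called higher (0.22). INSIG1 (-0.11 ± 0.099, adjusted p = 0.523) and HMGCS1, which makes HMG-CoA for mevalonate (-0.40 ± 0.14, adjusted p = 0.0733), did not pass. Of the 16 called genes 12 remained called in every refit without 1 array, SQLE, NPC1, SREBF1, SREBF2, ELOVL6, FADS1, LPIN1 and ACLY among them, and DHCR7, IDI1, SCD and TM7SF2 did not.

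**Figure D3:**
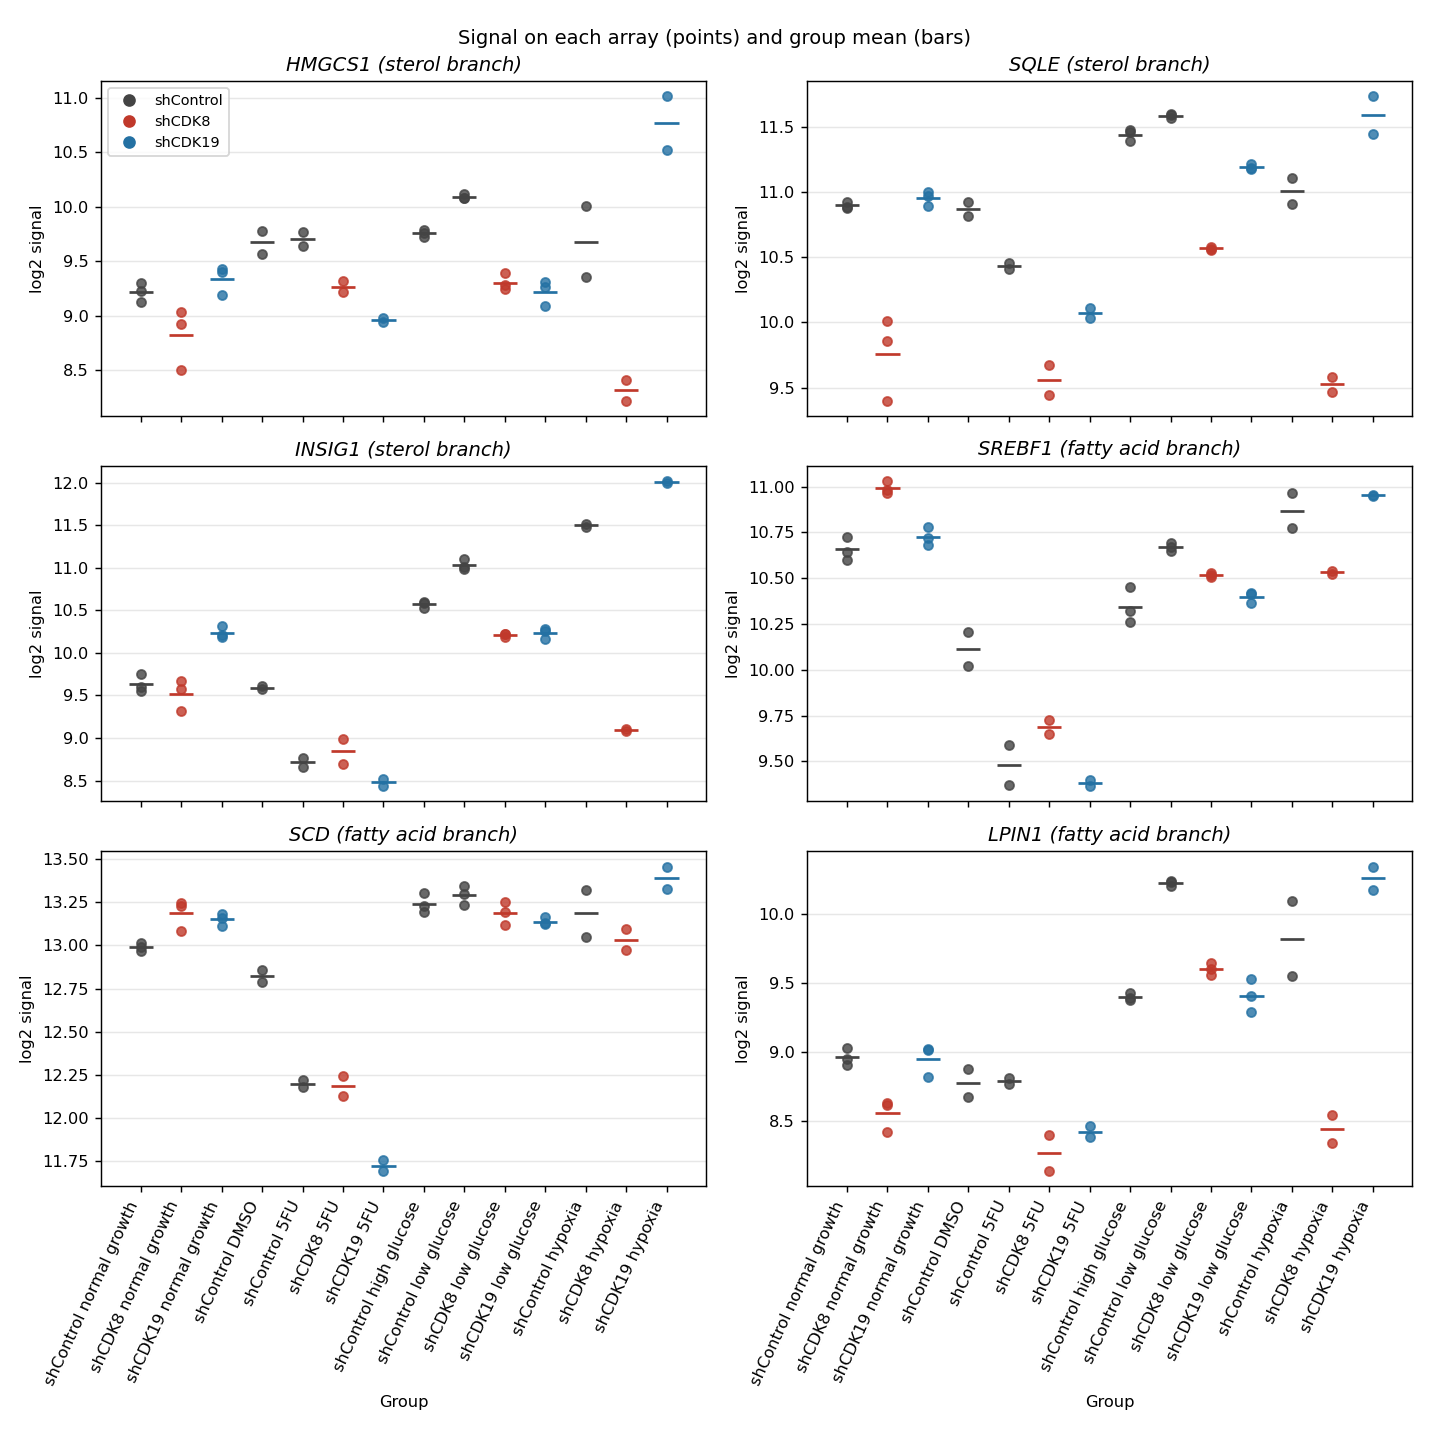
Log2 signal of HMGCS1, SQLE, INSIG1, SREBF1, SCD and LPIN1 on every array (points, coloured by line) with the group mean (bars), over the 14 groups. SQLE is lower in shCDK8 than in shControl cells in each experiment, and INSIG1 spans 8.44 to 12.0.

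The knockdown of CDK19 in normal growth went with few changes, most of them upward. In shCDK19 against shControl cells 4 sterol genes were higher and none lower, and 1 fatty acid gene was called each way, where 3.67% of all genes were called higher and 3.4% lower. INSIG1 read 10.32, 10.21 and 10.19 against 9.76, 9.60 and 9.55 in shControl, a change of 0.60 ± 0.099 (adjusted p = 0.0108). MVK, the mevalonate kinase, read 8.53, 8.59 and 8.45 against 7.93, 8.04 and 7.76 (0.61 ± 0.10, adjusted p = 0.0103). LSS, which closes squalene epoxide to lanosterol, rose by 0.41 ± 0.061 (adjusted p = 0.00686), and MSMO1, a sterol methyl oxidase, by 0.44 ± 0.097 (adjusted p = 0.0358). FASN was higher by 0.33 ± 0.055 (adjusted p = 0.011), and FADS2, the delta-6 desaturase, lower (-0.22). Changes of SQLE (0.056), SREBF1 (0.070), SREBF2 (0.044) and LPIN1 (-0.0094) did not pass. The 6 calls fell to 3 without shCDK19 normal growth replicate 2, shControl normal growth replicate 2 or shControl normal growth replicate 3, and only LSS and MVK remained in every such refit. Over all genes the calls fell from 1301 to between 662 and 814 among the refits without 1 array.

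Set directly against shCDK19 cells, shCDK8 cells in normal growth had 15 sterol genes lower and 1 higher, and 5 fatty acid genes lower and 2 higher, where 13.2% of all genes were called lower and 12.9% higher. SQLE differed by -1.20 ± 0.14 (adjusted p = 0.00065), INSIG1 by -0.71 ± 0.099 (adjusted p = 0.00152) and MSMO1 by -0.64 ± 0.097 (adjusted p = 0.0023). The other genes called lower lay between NPC1 (-0.61) and FASN (-0.24). SREBF1 (0.27), FADS2 (0.34) and TM7SF2 (0.32) were the 3 genes higher in shCDK8 cells, and of the 23 calls 18 remained in every refit without 1 array.

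5-fluorouracil lowered members of both branches in shControl cells. Against DMSO, 4 sterol genes and 5 fatty acid genes were lower and none was higher, where 4.29% of all genes were called lower and 7.17% higher. The split over all genes was 1320 higher and 789 lower, and became 1558 and 563 with array medians equalised. LSS read 8.92 and 9.22 in DMSO and 8.16 and 8.13 under 5FU, a change of -0.93 ± 0.11 (adjusted p = 0.00903). INSIG1 read 9.58 and 9.61 against 8.76 and 8.66 (-0.88 ± 0.10, adjusted p = 0.00903). These groups lay apart in each case. FADS2 read 9.77 and 9.88 in DMSO and 8.94 and 8.85 under 5FU (-0.93 ± 0.11, adjusted p = 0.00996). SCD read 12.79 and 12.86 against 12.18 and 12.22 (-0.62 ± 0.062, adjusted p = 0.00636). SREBF1 read 10.02 and 10.21 against 9.59 and 9.37 (-0.63 ± 0.10, adjusted p = 0.0181). The messages of both SREBP precursors and of enzymes on each branch were thus lower. FADS1 (-0.47), SQLE (-0.44), SREBF2 (-0.39) and FASN (-0.37) were the others called. HMGCS1 (0.033 ± 0.090, adjusted p = 0.868) and LPIN1 (0.011 ± 0.11, adjusted p = 0.977) did not pass. With 2 arrays a group, the 9 calls were not kept without shControl 5FU replicate 1, and most were not kept without shControl 5FU replicate 2. No call remained in every refit without 1 array. Calls over all genes also fell and rose among these refits.

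Under 5FU few differences between the lines passed. In shCDK8 against shControl cells 3 genes were lower and none higher, where 1.91% of all genes were called lower and 1.59% higher. SQLE read 9.45 and 9.67 against 10.45 and 10.41 in shControl cells (-0.87 ± 0.089, adjusted p = 0.0105). ELOVL6 read 9.24 and 9.15 against 9.95 and 10.02 (-0.79 ± 0.065, adjusted p = 0.00532). FADS1 read 9.72 and 9.79 against 10.34 and 10.36 (-0.59 ± 0.077, adjusted p = 0.0208). INSIG1 (0.13 ± 0.10, adjusted p = 0.645) did not pass. The count fell in each refit without 1 array, and no call remained in every such refit. Calls over all genes fell in each of these refits too.

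In shCDK19 cells under 5FU, HMGCS1 read 8.95 and 8.98 against 9.77 and 9.64 in shControl cells (-0.74 ± 0.090, adjusted p = 0.0373). SCD read 11.69 and 11.76 against 12.18 and 12.22 (-0.47 ± 0.062, adjusted p = 0.0446), its lowest arrays in the series. Those 2 genes were lower and none was higher, where 0.261% of all genes were called lower and 0.576% higher. Those calls were not kept without any 1 of the 4 arrays (shCDK19 5FU replicate 1 or 2, shControl 5FU replicate 1 or 2). Calls over all genes fell in these refits too. Between the knockdown lines under 5FU, FADS1 (-0.55), SQLE (-0.51) and ELOVL6 (-0.45) were lower in shCDK8 cells and SCD (0.46) and FASN (0.28) higher, where 2.92% of all genes were called lower and 2.22% higher. Those 5 calls were not kept without any 1 of the 4 arrays compared (shCDK8 5FU replicate 1 or 2, shCDK19 5FU replicate 1 or 2). Calls over all genes fell in these refits as well.

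Low glucose raised most members of both branches in shControl cells. Against high glucose, 11 sterol genes were higher and 3 lower, and 7 fatty acid genes were higher and none lower, where 13.9% of all genes were called higher and 17.3% lower. STARD4, a carrier of cholesterol between membranes, read 9.04, 9.12 and 9.03 in high glucose and 9.78, 9.99 and 10.09 in low glucose. Every low glucose array was above every high glucose array, and the change was 0.89 ± 0.087 (adjusted p = 3.33e-05). LPIN1 read 9.38, 9.43 and 9.39 against 10.21, 10.24 and 10.24 (0.83 ± 0.055, adjusted p = 3.17e-06), a 1.77-fold rise. NPC1 read 10.82, 10.85 and 10.87 against 11.50, 11.57 and 11.61 (0.71 ± 0.063, adjusted p = 1.82e-05). INSIG1 read 10.60, 10.59 and 10.53 against 11.01, 10.99 and 11.10 (0.46 ± 0.043, adjusted p = 2.76e-05). The genes of regulation and transport, SREBF2 (0.18) included, were all called higher.

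ELOVL6 read 10.73, 10.98 and 10.96 in high glucose and 11.30, 11.27 and 11.42 in low glucose (0.44 ± 0.074, adjusted p = 0.0012). SREBF1 rose by 0.33 ± 0.047 (adjusted p = 0.000413), ACSS2, which activates acetate, by 0.31 ± 0.046 (adjusted p = 0.000605), HMGCS1 by 0.34 ± 0.060 (adjusted p = 0.0016), FASN by 0.18 ± 0.044 (adjusted p = 0.00884) and SQLE by 0.15 ± 0.034 (adjusted p = 0.00801). IDI1, MVK, CYP51A1, LSS and MVD rose by 0.27 to 0.47, FADS1 by 0.27 and ACACA by 0.24. The 3 genes that fell were EBP, from 9.69, 9.68 and 9.77 to 9.33, 9.33 and 9.22 (-0.42 ± 0.051, adjusted p = 0.000137), TM7SF2, a sterol reductase (-0.39), and ACAT2, which makes acetoacetyl-CoA (-0.19). SCD (0.053 ± 0.048, adjusted p = 0.462) did not pass. Of the 21 calls 19 remained in every refit without 1 array.

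**Figure D4:**
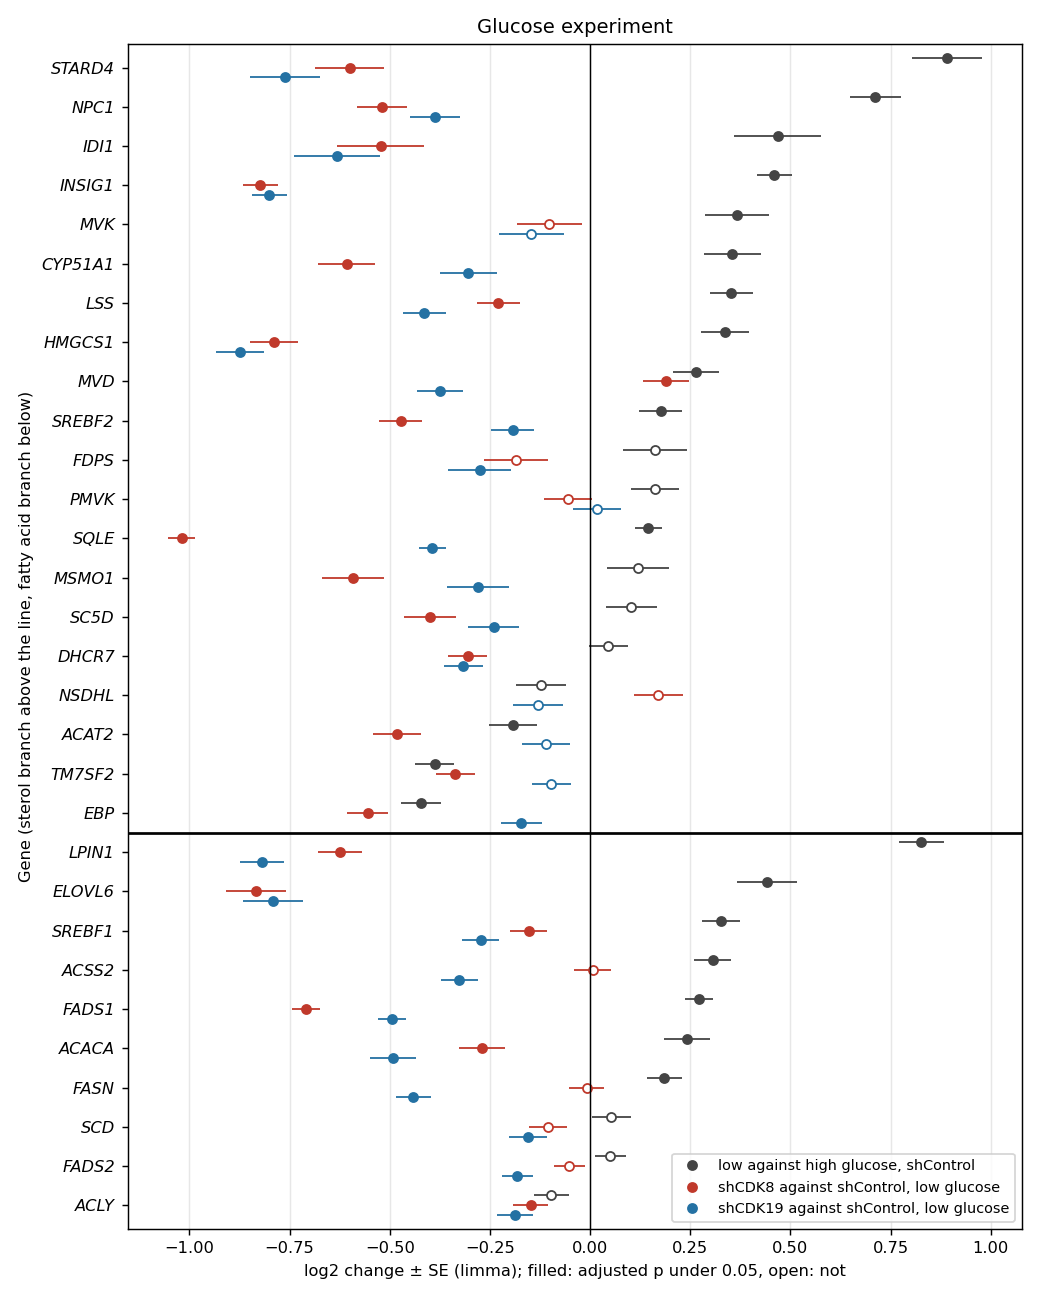
Log2 change ± SE (limma) of each gene for low against high glucose in shControl cells (grey), and for shCDK8 (red) and shCDK19 (blue) against shControl cells in low glucose; filled points passed an adjusted p of 0.05, open points did not. Most grey points lie above 0 and most coloured points below it; all these changes share the shControl low glucose arrays.

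In low glucose both knockdown lines lay below shControl cells over most members. In shCDK8 cells 15 sterol genes were lower and 1 higher, and 6 fatty acid genes were lower, where 10.2% of all genes were called lower and 12.1% higher. SQLE read 10.56, 10.56 and 10.58 in shCDK8 arrays and 11.60, 11.57 and 11.59 in shControl arrays (-1.02 ± 0.034, adjusted p = 2.19e-08). ELOVL6 read 10.43, 10.60 and 10.47 against 11.30, 11.27 and 11.42 (-0.83 ± 0.074, adjusted p = 2.81e-05). INSIG1 read 10.22, 10.19 and 10.22 against 11.01, 10.99 and 11.10 (-0.82 ± 0.043, adjusted p = 6.54e-07). In all 3 the groups lay apart by far more than the spread of the replicates. HMGCS1 fell by 0.79 on the log2 scale (SE 0.060, adjusted p = 8.39e-06), FADS1 by 0.71 (SE 0.035, adjusted p = 4.15e-07), LPIN1 by 0.62 (SE 0.055, adjusted p = 2.65e-05) and CYP51A1, the lanosterol demethylase, by 0.61 (SE 0.071, adjusted p = 0.000171). SREBF2 (-0.47) and SREBF1 (-0.15) were both lower. The remaining called genes, STARD4, MSMO1, EBP, IDI1, NPC1, ACAT2, SC5D, TM7SF2, DHCR7, ACACA, LSS and ACLY, changed by -0.60 to -0.15, and MVD rose by 0.19. FASN (-0.0088 ± 0.044, adjusted p = 0.934) and SCD (-0.10 ± 0.048, adjusted p = 0.16) did not pass. Of the 22 calls 19 remained in every refit without 1 array.

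In shCDK19 cells in low glucose 15 sterol genes and all 10 fatty acid genes were lower and none higher, where 10.8% of all genes were called lower and 9.11% higher. HMGCS1 read 9.27, 9.31 and 9.09 against 10.08, 10.08 and 10.12 in shControl cells (-0.87 ± 0.060, adjusted p = 7.83e-06). LPIN1 read 9.41, 9.53 and 9.29 against 10.21, 10.24 and 10.24 (-0.82 ± 0.055, adjusted p = 7.46e-06). INSIG1 read 10.25, 10.28 and 10.17 against 11.01, 10.99 and 11.10 (-0.80 ± 0.043, adjusted p = 1.8e-06). Each of these was below every shControl array. STARD4 fell by 0.76 (SE 0.087, adjusted p = 0.00022), ELOVL6 by 0.79 (SE 0.074, adjusted p = 6.4e-05), FASN by 0.44 (SE 0.044, adjusted p = 8.94e-05) and SQLE by 0.39 (SE 0.034, adjusted p = 3.55e-05) on the log2 scale. The other genes called lower changed by between -0.63 (IDI1) and -0.15 (SCD), with SREBF1 at -0.27 and SREBF2 at -0.19. MVK, NSDHL, ACAT2, TM7SF2 and PMVK did not pass. Of the 25 calls 17 remained in every refit without 1 array.

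The lines also differed from each other in low glucose, with no common direction. Against shCDK19 cells, shCDK8 cells had 7 sterol genes lower and 3 higher, and 1 fatty acid gene lower and 5 higher, where 11.2% of all genes were called lower and 14.7% higher. SQLE was the largest decrease (-0.62 ± 0.034, adjusted p = 8.33e-07). MVD, which makes isopentenyl diphosphate, read 10.81, 10.68 and 10.75 in shCDK8 arrays and 10.25, 10.17 and 10.13 in shCDK19 arrays (0.56 ± 0.057, adjusted p = 6.28e-05). FASN read 11.77, 11.70 and 11.73 against 11.36, 11.27 and 11.27 (0.43 ± 0.044, adjusted p = 6.28e-05). The difference of INSIG1 was -0.022 ± 0.043 (adjusted p = 0.771) and that of HMGCS1 0.085 ± 0.060 (adjusted p = 0.351), neither of which passed. Of the 16 calls 11 remained in every refit without 1 array.

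Under hypoxia the sterol genes were low in shCDK8 cells. Against shControl cells 11 sterol genes and 3 fatty acid genes were lower and none was higher, where 2.49% of all genes were called lower and 4.81% higher. The median change was -0.92 for sterol genes, -0.32 for fatty acid genes and -0.071 for all genes. INSIG1 read 11.48 and 11.52 in shControl arrays and 9.11 and 9.08 in shCDK8 arrays. That was a change of -2.41 ± 0.072 (adjusted p = 0.00161), or 5.31-fold. STARD4 read 10.41 and 10.97 against 8.77 and 8.65 (-1.98 ± 0.20, adjusted p = 0.0141). SQLE read 10.90 and 11.10 against 9.58 and 9.47 (-1.48 ± 0.14, adjusted p = 0.0118). MSMO1 read 11.68 and 12.13 against 10.60 and 10.46 (-1.38 ± 0.17, adjusted p = 0.0202). In each of these the shCDK8 arrays were close together and below both shControl arrays.

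SREBF2 itself read 11.12 and 11.31 in hypoxic shControl cells and 10.00 and 9.95 in hypoxic shCDK8 cells (-1.24 ± 0.11, adjusted p = 0.00957). LPIN1 read 9.55 and 10.10 against 8.54 and 8.34 (-1.38 ± 0.21, adjusted p = 0.0313). HMGCS1 read 9.35 and 10.01 against 8.41 and 8.22, a change of -1.36 ± 0.28 that did not pass (adjusted p = 0.06). IDI1, DHCR7, NPC1, CYP51A1, EBP and FDPS were lower by a log2 change between -1.14 and -0.66, and ACSS2 and FADS1 by -0.63 and -0.62. SREBF1 (-0.34, adjusted p = 0.108), FASN (-0.33, adjusted p = 0.0857) and SCD (-0.15, adjusted p = 0.44) did not pass. The shControl hypoxia arrays differed widely for ELOVL6 (8.85 and 9.87), HMGCS1 and STARD4. The 14 calls were not kept without shCDK8 hypoxia replicate 1 or 2, and more members were called without shControl hypoxia replicate 2. Calls over all genes also fell and rose among the refits without 1 array, so the count rests on 2 arrays a group. Beside these changes 1 of 6 fibroblast markers was called lower (median -0.28), and of 3 endothelium, 4 leukocyte and 4 adipocyte markers 0 were called (medians -0.34, -0.21 and -0.16). Of 8 colon carcinoma epithelium markers 2 were called higher and 3 lower (median -0.25), where 4.81% and 2.49% of all genes were called. The part of all these markers in the result was not tested.

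In shCDK19 cells under hypoxia 0 members were called either way by limma against shControl cells, where 0.196% of all genes were called higher and 0.0326% lower. Before adjustment limma gave p under 0.05 for 18 of the 30 upward and for 0 downward. The share of all genes under that threshold was not counted, so these counts are no result about the members. Of the 30 changes 26 were positive, with a median change of 0.43 against -0.054 for all genes. HMGCS1 read 10.52 and 11.02 against 9.35 and 10.01 (1.09 ± 0.28, adjusted p = 0.241), and INSIG1 12.02 and 12.00 against 11.48 and 11.52 (0.51 ± 0.072, adjusted p = 0.11). Both shCDK19 arrays were above both shControl arrays for these genes. With all 35 arrays in 1 fit 20 members were called higher, and the unmoderated analysis of variance called 0. Calls over all genes in these fits are not given here, so the counts are no result about the members alone. More members were called without shControl hypoxia replicate 2, and calls over all genes also rose among the refits without 1 array.

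Compared with shCDK19 cells, hypoxic shCDK8 cells had 17 sterol genes and 5 fatty acid genes lower and 1 sterol gene, TM7SF2 (0.57), higher, where 5.09% of all genes were called lower and 7.26% higher. INSIG1 differed by -2.92 ± 0.072 (adjusted p = 0.00109), or 7.55-fold. HMGCS1 differed by -2.45 ± 0.28 (adjusted p = 0.0138), STARD4 by -2.27 ± 0.20 (adjusted p = 0.00884) and MSMO1 by -2.23 ± 0.17 (adjusted p = 0.00693). LPIN1 differed by -1.82 ± 0.21 (adjusted p = 0.0137) and FASN, at 11.56 and 11.63 against 12.44 and 12.47, by -0.86 ± 0.083 (adjusted p = 0.0101). The other genes called lower lay between SQLE (-2.06) and ACLY (-0.48). The 23 calls were not kept without any 1 of the 4 arrays compared (shCDK8 hypoxia replicate 1 or 2, shCDK19 hypoxia replicate 1 or 2). Calls over all genes nearly vanished in these refits too.

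Set against normal growth of the same line, 9 of 20 sterol genes were higher under hypoxia in shControl cells and 13 in shCDK19 cells, while 13 were lower in shCDK8 cells. Hypoxia and normal growth were separate experiments, so oxygen and the experiment cannot be told apart in these comparisons. In shControl cells 9 sterol genes were thus higher and 1 was lower, and 4 fatty acid genes were called each way, where 21.1% of all genes were called higher and 26.7% lower. INSIG1 rose from 9.76, 9.60 and 9.55 to 11.48 and 11.52 (1.86 ± 0.082, adjusted p = 5.8e-14), and STARD4 from 9.10, 9.07 and 9.03 to 10.41 and 10.97 (1.63 ± 0.14, adjusted p = 3.43e-09). LPIN1 rose by 0.86 ± 0.11 (adjusted p = 1.66e-06), ACSS2 by 0.82 ± 0.097 (adjusted p = 3.71e-07), MSMO1 by 0.78 ± 0.11 (adjusted p = 4.61e-06), MVD by 0.54 ± 0.12 (adjusted p = 0.000708) and SREBF2 by 0.46 ± 0.073 (adjusted p = 2.05e-05). The fatty acid branch was split. ELOVL6 read 10.33, 10.46 and 10.40 in normal growth and 8.85 and 9.87 under hypoxia (-1.04 ± 0.17, adjusted p = 2.23e-05), FADS2 fell by 0.58, ACACA, which makes malonyl-CoA, by 0.52 and ACLY by 0.17. HMGCS1 (0.46), IDI1 (0.44), DHCR7 (0.30), SREBF1 (0.21), NPC1 (0.21) and SCD (0.20) were also higher, and TM7SF2 (-0.29) lower. SQLE (0.11 ± 0.11, adjusted p = 0.411) and FASN (0.061 ± 0.051, adjusted p = 0.313) did not pass. Without shControl hypoxia replicate 1 the change of ELOVL6 was -0.53, and those of HMGCS1 (0.79), SCD (0.33) and ACACA (-0.34) also moved by over 1.5 times. Without shControl hypoxia replicate 2 the same held for MVD (0.31), which still passed, and for HMGCS1 (0.13), DHCR7 (0.19), NPC1 (0.12), SREBF1 (0.12) and SCD (0.061), which did not pass. Markers of other cell types were also higher in this comparison: 3 of 6 fibroblast markers were called higher (median 0.31; COL1A1 0.79) and 1 of 3 endothelium markers (median 0.33), with medians of 0.30 for 4 adipocyte and 0.24 for 4 leukocyte markers and 0 of these called, against 0.056 for all genes. Of 8 colon carcinoma epithelium markers 4 were called higher too and 0 lower (median 0.26), so the shift was not limited to markers of other cell types. DCN and LUM stayed at or near the floor, and the part of these shifts in the result was not tested. Over all genes 3879 were higher and 4922 lower, which became 2332 and 5349 with array medians equalised, with 8 members higher and 7 lower. Of the 18 calls 12 remained in every refit without 1 array, INSIG1, STARD4, LPIN1, SREBF2 and ELOVL6 among them.

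In shCDK8 cells 13 sterol and 5 fatty acid genes were lower under hypoxia than in normal growth and none was higher, where 5.57% of all genes were called lower and 3.52% higher. INSIG1 read 9.32, 9.67 and 9.58 in normal growth and 9.11 and 9.08 under hypoxia (-0.43 ± 0.082, adjusted p = 0.00112). SREBF1 fell from 10.97, 11.03 and 10.98 to 10.52 and 10.54 (-0.46 ± 0.066, adjusted p = 4.2e-05) and FASN by 0.37 (SE 0.051, adjusted p = 3.23e-05). The other 15 lay between ACAT2 (-0.56) and SREBF2 (-0.27), HMGCS1 (-0.50) among them. STARD4 (-0.14 ± 0.14, adjusted p = 0.684), LPIN1 (-0.11 ± 0.11, adjusted p = 0.689) and ACSS2 (0.095 ± 0.097, adjusted p = 0.697), which were higher in the shControl comparison, did not pass. The count fell from 18 without shCDK8 hypoxia replicate 1 or 2, and calls over all genes also moved among the refits without 1 array. Only INSIG1, SREBF1, FASN, CYP51A1, DHCR7, EBP and FADS2 remained called in every refit, so most of the 18 calls did not.

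In shCDK19 cells 13 sterol genes were higher and 1 lower under hypoxia, and 5 fatty acid genes were higher and 3 lower, where 11.1% of all genes were called higher and 20.2% lower. STARD4 rose from 9.29, 9.23 and 9.04 to 10.99 and 10.96 (1.79 ± 0.14, adjusted p = 4.21e-10), and INSIG1 from 10.32, 10.21 and 10.19 to 12.02 and 12.00 (1.77 ± 0.082, adjusted p = 5.05e-14). HMGCS1 rose from 9.43, 9.40 and 9.19 to 10.52 and 11.02 (1.43 ± 0.15, adjusted p = 6.44e-08), and LPIN1 from 9.02, 9.02 and 8.82 to 10.18 and 10.35 (1.31 ± 0.11, adjusted p = 1.87e-09). ACSS2 (1.24), MSMO1 (1.19), IDI1 (0.97), MVD (0.91), CYP51A1 (0.65), NPC1 (0.64) and SQLE (0.64) also rose, as did SREBF2 (0.61), SC5D (0.54), DHCR7 (0.53), FDPS (0.51), FASN (0.25), SCD (0.24) and SREBF1 (0.23). ELOVL6 (-0.65), FADS2 (-0.41), TM7SF2 (-0.41) and ACACA (-0.23) fell. Of the 22 calls 19 remained in every refit without 1 array.

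**Figure D5:**
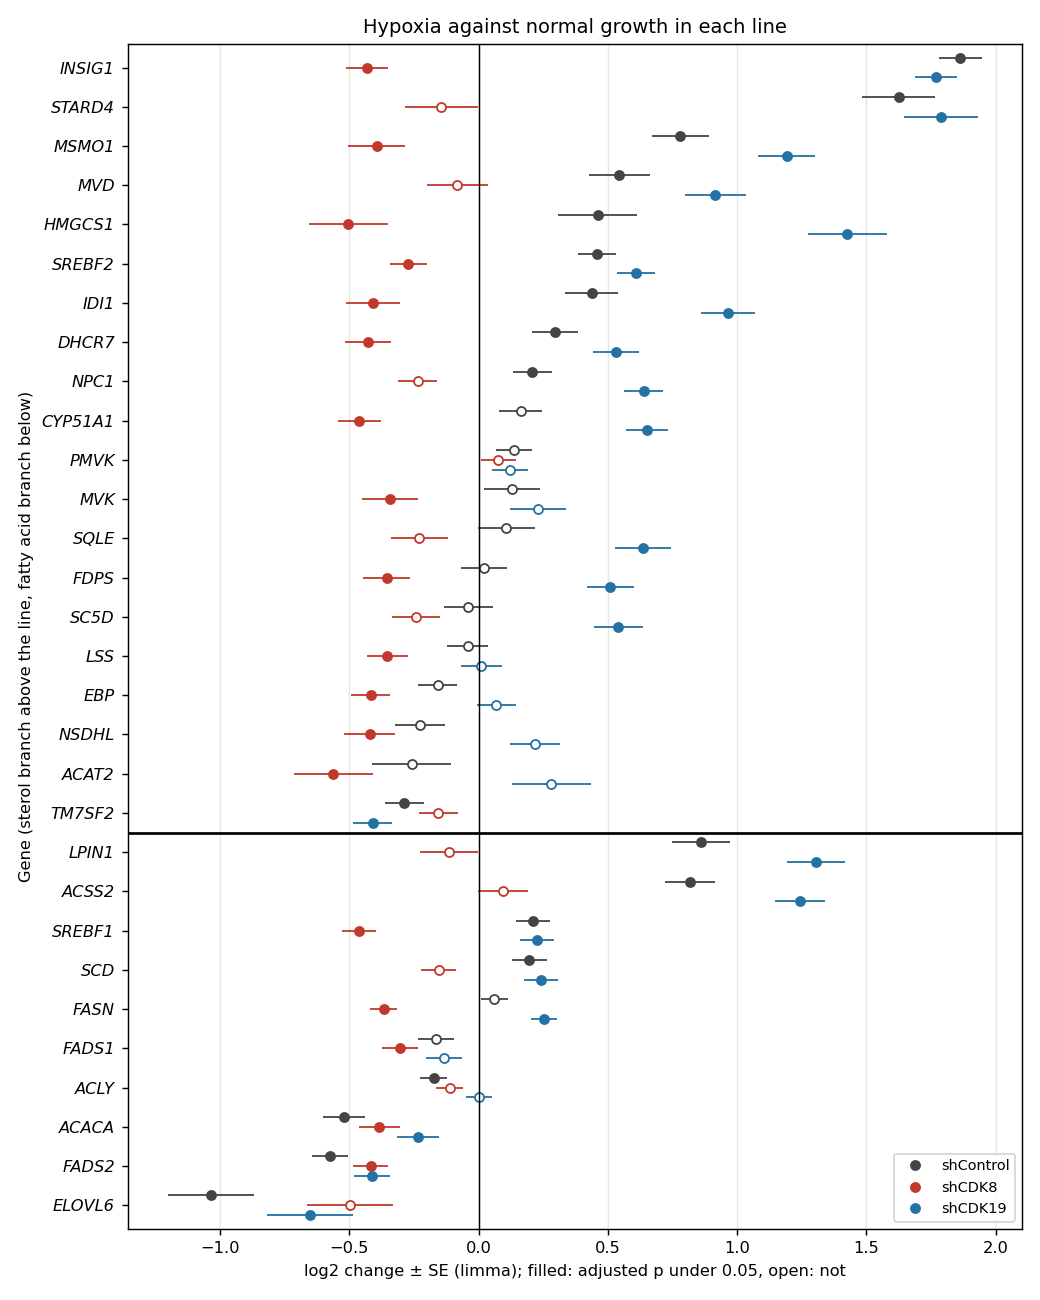
Log2 change ± SE (limma, all 35 arrays in 1 fit) of each gene for hypoxia against normal growth within shControl (grey), shCDK8 (red) and shCDK19 (blue) cells; filled points passed an adjusted p of 0.05, open points did not. INSIG1 and STARD4 lie between 1.63 and 1.86 in shControl and shCDK19 cells and below 0 in shCDK8 cells.

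Whether a knockdown's effect itself differed between experiments was tested in the fit of all 35 arrays. Stress changed together with the experiment, and in the glucose experiment with the medium, so these cannot be told apart in any of the differences. The shCDK8 effect under hypoxia minus that in normal growth was called negative for 16 members and positive for none, where 2.45% of all genes were called negative and 9.06% positive. INSIG1 differed by -2.30 ± 0.12 (adjusted p = 9.94e-12), STARD4 by -1.77 ± 0.20 (adjusted p = 3.63e-06), MSMO1 by -1.17, LPIN1 by -0.98 ± 0.16 (adjusted p = 0.000309) and ACSS2 by -0.72 ± 0.14 (adjusted p = 0.00117). Of the 16 calls 13 remained in every refit without 1 array. For low glucose against normal growth the shCDK8 effect was more negative for 5 members and more positive for 1 (ACLY, 0.23), where 5.06% and 7.78% of all genes were called. For 5FU it differed for 1 member, FDPS, upward (0.57 ± 0.13, adjusted p = 0.00286), where 6.25% were called upward and 5.62% downward. That count was 2 or 3 without any 1 of 7 arrays: 3 without shCDK8 5FU replicate 1 or shCDK8 normal growth replicate 2, and 2 without shCDK8 5FU replicate 2, shControl 5FU replicate 2, shControl normal growth replicate 3 or shCDK8 normal growth replicate 1 or 3. FDPS remained called in each.

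The shCDK19 effect in low glucose differed from that in normal growth for 14 members, all negative, where 0.799% of all genes were called negative and 0.989% positive. INSIG1 was higher in shCDK19 than in shControl cells in normal growth and lower in low glucose, a difference of -1.40 ± 0.10 (adjusted p = 2.15e-08). HMGCS1 differed by -0.99 ± 0.19 (adjusted p = 0.00511), LPIN1 by -0.81 ± 0.14 (adjusted p = 0.00201) and FASN by -0.77 ± 0.065 (adjusted p = 5.92e-08). Of the 14 calls 10 remained in every refit without 1 array. Under 5FU 13 members differed, all negative, where 1.81% of all genes were called negative and 2.18% positive. HMGCS1 (-0.86), ACAT2 (-0.86) and INSIG1 (-0.83) led the sterol genes and SCD (-0.63) the fatty acid genes. Only INSIG1, SCD, ACACA and FASN remained called in every refit without 1 array, so HMGCS1 and ACAT2 did not. With array medians equalised 3 members were called, and the split over all genes went from 402 positive and 334 negative to 153 and 201. The count fell in each refit without 1 array, among them those without shCDK19 5FU replicate 1 or 2 or shControl 5FU replicate 1. Calls over all genes fell in each of these refits too.

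Under hypoxia the shCDK19 effect was more positive than in normal growth for 5 members (HMGCS1 0.97, SC5D 0.58, FDPS 0.49, CYP51A1 0.49 and NPC1 0.43) and more negative for none, where 1.52% of all genes were called positive and 0.56% negative. The split over all genes, 280 positive and 103 negative, became 95 and 17 with array medians equalised and 266 and 249 with quantile normalization. Without shControl hypoxia replicate 1 the difference of HMGCS1 was 0.64 and did not pass. More members were called without shControl hypoxia replicate 2. The 5 calls became 2 without shControl normal growth replicate 1, and 1 without shControl normal growth replicate 3 or shCDK19 normal growth replicate 2. They were not kept without shCDK19 hypoxia replicate 2, shControl hypoxia replicate 1 or shCDK19 normal growth replicate 3. Calls over all genes also rose and fell among the refits without 1 array. The knockdown comparisons of an experiment share their shControl arrays, and all these differences share the normal growth arrays, so the values of different comparisons are not independent.

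Genes around the pathway did not move with it in one block. Of 6 measured genes of SREBP processing and turnover, 1 was higher and 5 lower under hypoxia in shControl cells, where 21.1% of all genes were called higher and 26.7% lower. INSIG2, the second INSIG protein, was higher by 2.45 ± 0.16 (adjusted p = 3.5e-11) in shControl, 1.48 ± 0.16 (adjusted p = 1.2e-06) in shCDK8 and 2.96 ± 0.16 (adjusted p = 7.9e-13) in shCDK19 cells under hypoxia. INSIG2 thus rose in all 3 lines, unlike INSIG1. TMEM97, a sterol-regulated membrane protein, was lower under hypoxia in shControl cells (-0.85 ± 0.072, adjusted p = 2.3e-09) and in shCDK8 cells (-0.52 ± 0.072, adjusted p = 2.9e-05). In low against high glucose 2 of the 6 were lower and none higher (17.3% and 13.9% of all genes).

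Of 9 measured genes of sterol efflux, storage and movement, 3 were higher and 2 lower in shCDK8 against shControl cells in normal growth, where 11.4% of all genes were called higher and 13.5% lower. In low glucose 2 were higher and 2 lower (12.1% and 10.2% of all genes), and under hypoxia 2 and 0 (4.81% and 2.49%). ABCA1, which exports cholesterol, was higher in shCDK8 cells by 1.38 ± 0.10 (adjusted p = 6.7e-05) in normal growth, 0.89 ± 0.064 (adjusted p = 6.3e-06) in low glucose and 1.32 ± 0.090 (adjusted p = 0.0071) under hypoxia. Under 5FU 0 of the 9 genes were higher in shCDK8 cells and 1 was lower (1.59% and 1.91% of all genes). ABCA1 was thus not called higher there. In shCDK19 cells in low glucose ABCA1 was lower (-0.26 ± 0.064, adjusted p = 0.019). NPC2, the partner of NPC1 in lysosomes, was lower in shCDK8 cells in low glucose (-0.50 ± 0.045, adjusted p = 3.1e-05) and under 5FU (-0.77 ± 0.067, adjusted p = 0.0063).

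Of 11 other measured genes of fatty acid and glycerolipid synthesis, 3 were higher and 4 lower in low against high glucose, where 13.9% of all genes were called higher and 17.3% lower. Against shControl cells in low glucose, 0 were higher and 5 lower in shCDK8 cells (12.1% and 10.2% of all genes), and 1 higher and 7 lower in shCDK19 cells (9.11% and 10.8%). GPAM, which starts glycerolipid synthesis, fell in low glucose (-0.85 ± 0.094, adjusted p = 7.4e-05) and under hypoxia in shControl cells (-1.56 ± 0.13, adjusted p = 2.5e-09). Of 9 measured fatty acid oxidation genes, 1 was higher and 2 lower in low against high glucose, close to the shares over all genes (13.9% and 17.3%). CPT1A, which brings fatty acids into mitochondria, fell by 0.81 on the log2 scale (SE 0.058, adjusted p = 4.8e-06). Of 4 genes of non-sterol isoprenoids, 3 were lower under hypoxia in shControl cells (26.7% of all genes were called lower there), PDSS1, of ubiquinone side chain synthesis, by 1.03 (SE 0.13, adjusted p = 1.5e-06).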

How the data were processed

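Total RNA was hybridised to Affymetrix HuGene arrays, 1 sample per array. The deposited log2 values, 1 per transcript cluster, were made with Partek, per the submitters' processing notes; for the background correction and normalization the method is not given in the labels. On every array the values lay between 20 and 20000 before the logarithm. A floor shortens changes of dim genes, and a shared distribution makes changes relative to other genes. Of 32321 clusters 19158 carried 1 gene symbol in the platform annotation, 1388 several and 11775 none listed; the supplied RefSeq gene table changed 0 symbols. Groups came from the array titles. Within each experiment lmFit and eBayes of limma 3.58.1 (R 4.3.3) were run with 1 mean per group; hypoxia against normal growth, and differences of effects, came from 1 fit of 35 arrays. P-values are two-sided and Benjamini-Hochberg adjusted over 18404 genes. The scripts were tested on simulated data. The members and the other gene lists were chosen with earlier results of these data known. Full values were allowed in each comparison for up to 4 called members per branch with the largest change and replicates apart, for HMGCS1, SQLE, INSIG1, SREBF1, SREBF2, FASN, SCD and LPIN1, and for up to 2 genes of each other list; array values of a few further members, named where they recur between comparisons, were chosen after their values were seen. The number of arrays limits the precision.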

Additional observations from a re-analysis of the deposited data

Results flagged for a closer look

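Some knockdown effects differed between experiments by the interaction term of the fit of all 35 arrays. Up to 2 called genes per branch with the largest difference are given. Values are the effect in the stress experiment minus that in normal growth, on the log2 scale. Stress, experiment and, for glucose, medium cannot be told apart in them. For shCDK8 under 5FU it was 0.57 for FDPS. For shCDK8 in low glucose it was -0.71 for INSIG1, -0.55 for TM7SF2, -0.49 for SREBF1 and -0.45 for ACACA. For shCDK8 under hypoxia it was -2.30 for INSIG1, -1.77 for STARD4, -0.98 for LPIN1 and -0.72 for ACSS2. For shCDK19 under 5FU it was -0.86 for HMGCS1, -0.86 for ACAT2, -0.63 for SCD and -0.53 for ACACA. Of these, HMGCS1 and ACAT2 did not remain called in every refit without 1 array. For shCDK19 in low glucose it was -1.40 for INSIG1, -0.99 for HMGCS1, -0.81 for LPIN1 and -0.77 for FASN. For shCDK19 under hypoxia it was 0.97 for HMGCS1 and 0.58 for SC5D, and neither gene remained called in every refit without 1 array. No group held 4 or more arrays, so no array was tested as an outlier.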

How the results depend on the processing

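Counts of called members are given as the value under the setting named, with the value reported above in parentheses. With the replicate number as a block, shCDK19 in normal growth had 2 (6), shCDK19 under 5FU 0 (2), shCDK8 against shCDK19 under 5FU 1 (5), shCDK8 under hypoxia 6 (14) and the 5FU difference of shCDK8 2 (1). Same-numbered arrays did not deviate together in every pair (r from -0.62 to 0.41), and an array correlated best with its own number in 8 of 18 cases in normal growth and 17 of 36 in the glucose experiment. These counts do not settle whether the numbers pair the arrays; the labels do not say so, and no pairing was assumed. With the numbers crossed, a setting chosen after seeing the data, 5FU against DMSO had 11 (9), shCDK8 under 5FU 2 (3), shCDK19 under 5FU 0 (2), shCDK8 under hypoxia 13 (14) and shCDK8 against shCDK19 under hypoxia 22 (23). With array medians equalised, hypoxia against normal growth in shCDK8 had 11 (18), and the differences had 3 (6) for shCDK8 in low glucose, 3 (13) for shCDK19 under 5FU and 1 (5) for shCDK19 under hypoxia. With quantile normalization, shCDK8 under 5FU had 7 (3), shCDK19 under 5FU 4 (2), shCDK8 against shCDK19 under 5FU 9 (5), and the differences of shCDK8 7 (1) under 5FU and 11 (6) in low glucose. Without genes at the floor, shCDK8 under 5FU had 7 (3). With the unmoderated one-way analysis of variance, which the design text names, 5FU against DMSO had 5 (9), shCDK8 under 5FU 1 (3), shCDK19 under 5FU 0 (2), shCDK8 against shCDK19 under 5FU 1 (5), shCDK8 under hypoxia 3 (14) and shCDK8 against shCDK19 under hypoxia 11 (23). With all arrays in 1 fit, 5FU against DMSO had 15 (9), shCDK8 under 5FU 7 (3), shCDK19 under 5FU 9 (2), shCDK8 against shCDK19 under 5FU 10 (5), shCDK8 under hypoxia 27 (14) and shCDK19 under hypoxia 20 (0). Calls over all genes under these settings are mostly not given beside them, so a shift of a count is no result about the members alone. The causes of these shifts were not tested. Leaving out 1 array at a time gave, in normal growth, 12 to 19 for shCDK8 (16), 3 to 4 for shCDK19 (6) and 18 to 25 between the lines (23). Under 5FU it gave 0 to 9 against DMSO (9), 0 to 2 for shCDK8 (3), 0 for shCDK19 (2) and 0 between the lines (5). In glucose it gave 19 to 21 for low against high (21), 19 to 20 for shCDK8 (22), 19 to 21 for shCDK19 (25) and 11 to 16 between the lines (16). Under hypoxia it gave 0 to 22 for shCDK8 (14), 0 to 20 for shCDK19 (0) and 0 between the lines (23). For hypoxia against normal growth it gave 16 to 18 in shControl (18), 8 to 21 in shCDK8 (18) and 19 to 22 in shCDK19 (22). For the differences it gave 1 to 3, 4 to 8 and 13 to 18 for shCDK8 and 4 to 12, 10 to 12 and 0 to 16 for shCDK19 under 5FU, in low glucose and under hypoxia (1, 6, 16, 13, 14 and 5). Where that left a group with 1 array, it was assumed to vary like the other groups. Calls over all genes moved as well when 1 array was left out. For shCDK8 in normal growth they went from 4579 to between 3190 and 6713, and for low against high glucose from 5738 to between 4809 and 5100. Among single genes, ELOVL6 in shCDK8 against shControl cells under hypoxia reversed, to 0.45 without shControl hypoxia replicate 2 (lowest value -0.57, without shControl hypoxia replicate 1). Counts of the other comparisons stayed within 1.5 times under the settings not named here.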
